A study of Mus musculus with 2 samples.

Results

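A set of 10 genes that encode feedback regulators and transcription factors of the ERK pathway were followed in mouse back skin after FGF18: the Sprouty genes Spry1, Spry2 and Spry4, the Spred genes Spred1 and Spred2, the phosphatase genes Dusp4, Dusp5 and Dusp6, and the ETS factor genes Etv4 and Etv5. They were taken by symbol as genes known for this role, and all 10 of 10 were measured among 22180 genes with a symbol of their own on the array. Skin of male BALB/cAJcl mice, 7 weeks old, was measured on 2 arrays, 1 from a mouse or mice given FGF18 and 1 from a saline control. In the FGF18 course the back was depilated to start hair growth, 100 µg of FGF18 was injected into the peritoneum 6 days later in saline with heparin at 5 µg/µl, γ-rays at 6 Gy were given to the whole body 24 h after that, and skin was taken after another 4 h, so that transcripts were read 28 h after the injection. The labels name the control only as saline. Whether it was depilated on the same schedule, irradiated or given heparin is not spelled out, nor is the number of mice behind each array, so FGF18 and these other steps cannot be told apart.

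FGF receptors signal through Ras, Raf, MEK and ERK, a chain of switches and kinases that carries growth factor signals to the nucleus. Active ERK switches on genes whose products shut the same chain down. Sprouty and Spred proteins act at the level of Ras and Raf, and Dusp4, Dusp5 and Dusp6 encode phosphatases that remove the activating phosphates from ERK. Etv4 and Etv5 encode ETS factors of the PEA3 group, which are induced by FGF signals in many tissues and carry them on to further genes. Transcripts of these genes are therefore widely used as a readout of recent FGF and ERK activity. In skin, FGF18 is known as a factor of the resting hair follicle.

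Values are RMA intensities on a linear scale. A difference is FGF18 minus saline in log2(intensity + 1), which understates the change of dim genes. With 1 array per group there is no replicate, no test and no p-value, and every difference describes these 2 arrays. The only error that could be measured was the disagreement between separate transcript clusters, the probe sets of the array, of the same symbol: over 319 symbols with at least 2 such clusters at or above the median level, the pooled SD of the difference within a symbol was 0.24. It does not cover the spread between animals, and a difference larger than this SD is not thereby beyond error. Intensities of different probe sets are not on a shared scale, so levels are compared only between the arrays and not between genes. Of the members, 9 had a mean level at or above the median over genes (4.15 on the log2 scale, an intensity of 16.7), and Spry4 lay just below it.

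The stretches upstream of 4 of the genes are shown because ERK acts on its target genes largely through ETS factors and the serum response factor, and because each of these genes holds at least 1 of the sites searched for. Spred1 had the highest difference among members measured by a single cluster, Dusp6 the highest among all members, Dusp5 the lowest, and Spred2 lay between them. Each sequence is the 250 bases before the annotated start in RefSeq, build GRCm38.p6, on the strand of the gene and 5′ to 3′. Capitals mark matches to the letters CGGAAG (an ETS core) and TGACGT (the core of a cyclic AMP response element), on either strand, and to the CArG box, the site of serum response factor.
Dusp6, chr10:99262981-99263230, plus strand: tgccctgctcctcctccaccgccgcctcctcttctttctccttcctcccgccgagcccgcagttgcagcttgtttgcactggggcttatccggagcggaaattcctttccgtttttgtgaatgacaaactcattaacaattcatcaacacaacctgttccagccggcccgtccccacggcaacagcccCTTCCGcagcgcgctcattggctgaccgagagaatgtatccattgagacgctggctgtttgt
Spred1, chr2:117120821-117121070, plus strand: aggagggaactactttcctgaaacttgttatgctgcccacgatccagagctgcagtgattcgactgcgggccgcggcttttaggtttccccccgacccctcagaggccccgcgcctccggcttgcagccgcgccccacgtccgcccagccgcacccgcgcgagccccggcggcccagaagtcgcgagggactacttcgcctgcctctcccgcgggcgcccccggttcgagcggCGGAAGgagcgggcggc
Spred2, chr11:19924192-19924441, plus strand: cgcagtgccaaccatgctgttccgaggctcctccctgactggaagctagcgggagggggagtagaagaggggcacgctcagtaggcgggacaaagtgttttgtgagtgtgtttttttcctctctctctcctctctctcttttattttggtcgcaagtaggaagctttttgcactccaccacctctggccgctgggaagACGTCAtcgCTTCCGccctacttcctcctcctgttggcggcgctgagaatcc
Dusp5, chr19:53528895-53529144, plus strand: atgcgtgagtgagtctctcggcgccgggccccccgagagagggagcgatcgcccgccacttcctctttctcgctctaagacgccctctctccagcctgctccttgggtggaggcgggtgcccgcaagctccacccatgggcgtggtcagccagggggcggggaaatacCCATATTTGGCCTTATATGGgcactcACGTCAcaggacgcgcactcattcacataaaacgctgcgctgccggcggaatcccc
The ETS core was found in the windows of Dusp6, Spred1 and Spred2, where it begins 62, 17 and 43 bases before the start, on the strand opposite to the gene in Dusp6 and Spred2. It was in 3 of 8 member windows, against 13.6% of all 32851 windows of that length. Dusp5 held the adjoining CArG boxes CCATATTTGG and CCTTATATGG, which begin 82 and 72 bases before its start, and 1.47% of all windows held a CArG box. TGACGT was in the windows of Dusp5 and Spred2 and in 6.47% of all windows. No member window held TGACTCA, an AP-1 site (4.46% of all windows), on either strand. None held TGAATGAA or TGAATGGA on either strand, letters bound by the repressor Cic (1.08% and 1.01% of all windows). Other letters that Cic may bind were not searched for, so a window without these may still hold a Cic site. None of the marked sites overlapped another. The 8 windows belong to 7 members, since Etv5 has a pair of them. The motifs were chosen with the values and these sequences known, and a match describes letters only.

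Most of the ERK feedback genes were higher by some amount on the FGF18 array, as were most genes at or above the median level. Averaged over its clusters, no member reached 1.5-fold in either direction at or above the median level, where 3.64% of 11090 genes passed it on the higher side and 4.63% on the lower side, so that a count of 0 members is near the background. Of the 10 members, 8 were higher by any amount on the FGF18 array, 1 was lower and 1 was equal. Of the 11090 brighter genes 59.4% were also higher by any amount, 38.0% lower and 2.65% equal, and 49.5% of all genes were higher. The median difference of the members was 0.14, against 0.07 over genes at or above the median level and 0.00 over all genes. Differences ran from -0.25 (Dusp5) to 0.50 (Dusp6).

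**Figure D1:**
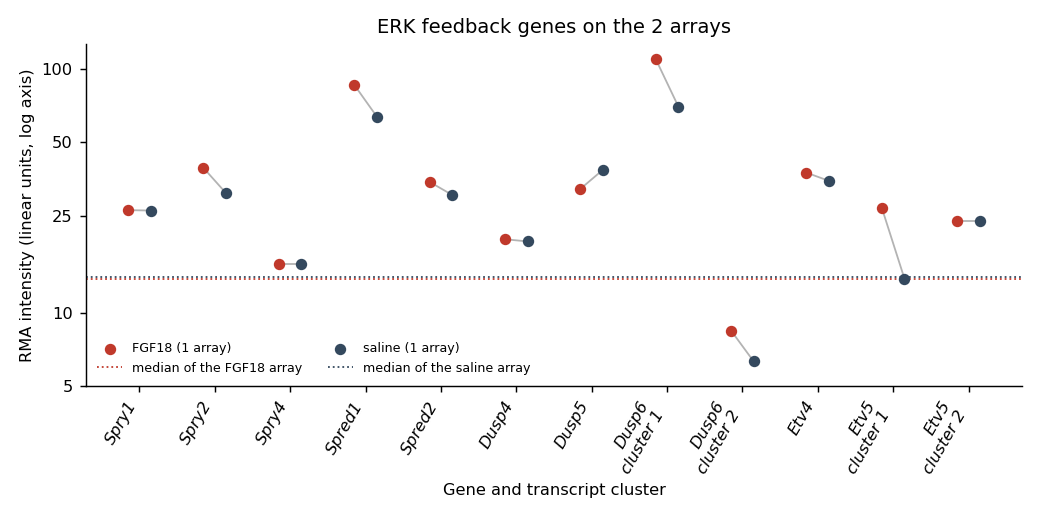
RMA intensity (log axis) of each transcript cluster of the 10 genes on the FGF18 array (red, left of each pair) and the saline array (dark, right), 1 array each, with dotted lines at each array's median. Dusp6 cluster 1 stands at 110 with FGF18 and 70.1 with saline, Dusp5 is the member with the higher value in saline, and Spry4 and Etv5 cluster 2 have equal values.

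Sprouty genes, whose proteins bind adaptors and restrain Ras signalling downstream of receptors, did not share a shift. Spry2 read 39.3 on the FGF18 array and 30.9 on the saline array, which is 1.26-fold higher with FGF18 (difference 0.34), and 16.3% of genes at or above the median level had a higher difference. Spry1 read 26.3 on both arrays to that precision, with a difference of 0.01. Spry4 read 15.8 on both arrays, equal to every deposited digit. Spry2 is thus the Sprouty gene with a difference larger than the pooled SD between clusters (0.24). Each of the 3 genes was measured by a single cluster.

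The Spred genes, whose products are Sprouty-related proteins that recruit the Ras inhibitor neurofibromin to the membrane, were both higher on the FGF18 array. Spred1 read 86.1 with FGF18 and 63.7 with saline, a 1.35-fold difference (0.43) that 9.54% of genes at or above the median level exceeded. Spred2 read 34.4 with FGF18 and 30.4 with saline, a difference of 0.17 that 35.5% of those genes exceeded. Nf1, the gene of neurofibromin itself, read 93.4 with FGF18 and 69.2 with saline, a difference of 0.43. The differences of Spred1 and Nf1 were larger than the pooled SD between clusters (0.24), and that of Spred2 was smaller.

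The phosphatase genes spanned the whole range of the members. Dusp6, which encodes a cytoplasmic phosphatase specific for ERK, had the highest difference, 0.50, exceeded by 5.90% of genes at or above the median level. It was measured by 2 clusters of unequal brightness. The brighter read 110 on the FGF18 array and 70.1 on the saline array, a 1.56-fold difference (0.64), and the dimmer read 8.44 and 6.31 in the same order, below the median of either array (13.8 with FGF18, 14.0 with saline). The average over both clusters, 1.42-fold, therefore includes a probe set not shown above background, and the brighter cluster alone lay past 1.5-fold.

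Dusp5 and Dusp4 encode phosphatases that act on ERK in the nucleus, and neither was higher by as much as Dusp6. Dusp5 read 32.2 on the FGF18 array and 38.6 on the saline array, which is 1.19-fold lower with FGF18 (difference -0.25), and 14.7% of genes at or above the median level had a lower difference. Dusp4 read 20.0 with FGF18 and 19.6 with saline, a difference of 0.03. Dusp5 was the sole member with the lower value on the FGF18 array. In size its difference was just larger than the pooled SD between clusters (0.24), and that of Dusp4 was smaller.

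**Figure D2:**
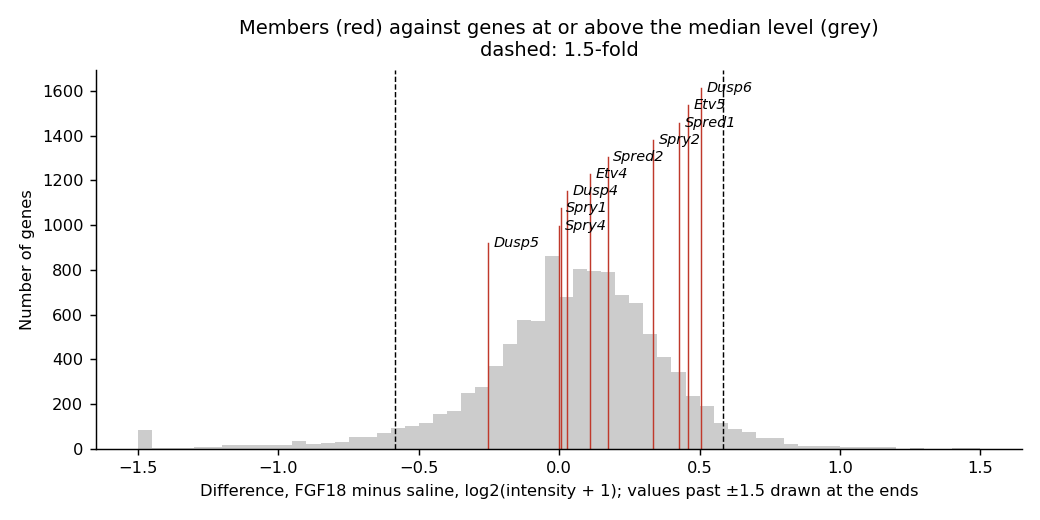
Number of genes (grey bars) by difference, FGF18 minus saline in log2(intensity + 1), for the 11090 genes at or above the median level, with red lines at the 10 members (line heights only separate the names) and dashed lines at 1.5-fold. All members lie between the dashed lines, from Dusp5 at -0.25 to Dusp6 at 0.50.

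Of the PEA3 factor genes, Etv5 had the larger difference, and its probe sets disagreed. Averaged over 2 clusters, it read 25.3 on the FGF18 array and 18.1 on the saline array, a difference of 0.46 that 7.91% of genes at or above the median level exceeded. The first cluster read 26.9 with FGF18 and 13.8 with saline, the saline value lying just under the saline array's median, so this cluster lay past 1.5-fold but against a value not shown above background. The second read 23.7 on both arrays, equal to every deposited digit. The difference of Etv5 thus came from 1 of its 2 clusters. Etv4, a close relative of Etv5, read 37.5 with FGF18 and 34.7 with saline, a difference of 0.11 that 44.6% of those genes exceeded.

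Exact equality was not confined to these probe sets. Of 41345 transcript clusters, 2026 (4.90%) had the same value on both arrays, and the share was 2.72% among clusters at or above both arrays' medians and 7.78% among clusters below both. How these equal values arose was not tested, so the equal readings of Spry4 and of the second Etv5 cluster are given as deposited.

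A wider list of regulators of ERK or of growth factor receptors also differed by less than 1.5-fold. It includes relatives that are not ERK feedback genes in the strict sense, among them Dusp8, Dusp10, Dusp16, Cic, Atxn1 and Atxn1l. Of 19 genes of this list measured, 13 were higher and 6 lower, and the median difference was 0.10. None of the 14 at or above the median level reached 1.5-fold in either direction. Errfi1, whose product inhibits the EGF receptor, read 56.2 with FGF18 and 76.9 with saline, the lowest difference of the list at -0.45. Lrig1, which restrains receptor tyrosine kinases, and Flrt3, an FGF receptor partner, stood at 0.35 and 0.34. Dusp8, a phosphatase gene of stress-activated kinases, was at -0.21.

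Receptor genes of FGFs lay on both sides of equality, and most adaptor genes that link them to Ras were slightly higher on the FGF18 array. Among 15 receptor and adaptor genes, 11 were higher and 4 lower (median 0.19), and none reached 1.5-fold. Fgfr2 read 172 with FGF18 and 115 with saline (0.57), and Fgfr1 read 54.0 with FGF18 and 36.2 with saline (0.56). Fgfr4 lay on the lower side at -0.58, with 13.85 on the FGF18 array and 21.1 on the saline array. With 1 added to each intensity Fgfr4 was 1.49-fold lower, and without that added 1 it lay past 1.5-fold. Its FGF18 value lay barely above that array's median of 13.81, so it is not shown above background. Fgfr3 was at -0.18. The transcript of Fgf18 itself read 25.4 with FGF18 and 21.6 with saline (0.22). As the protein was injected, this value does not check the treatment.

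Genes of the Ras to ERK cascade were within 1.5-fold with a single exception. With FGF18, 7 of 12 measured genes were higher and 5 lower, and the median difference was 0.07 (-0.036 after a loess trend of difference against brightness was removed). Braf, a kinase that activates MEK, read 283 with FGF18 and 172 with saline, which is 1.64-fold higher with FGF18 and the only gene of this list past 1.5-fold. Map2k1, the gene of the kinase MEK1, read 39.7 with FGF18 and 52.5 with saline, a difference of -0.40, and the small GTPase gene Rras was at -0.18.

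Other transcripts that ERK drives also differed by less than 1.5-fold. Of 16 measured, 11 were higher, 4 lower and 1 equal (median 0.08), and none reached 1.5-fold. Ccnd1, the cyclin of G1 phase, read 136 with FGF18 and 95.0 with saline (0.52), and the immediate early factor gene Egr1 read 69.2 with FGF18 and 49.2 with saline (0.49). Ier3 and Phlda1, early genes of growth factor responses, were at -0.19 and -0.17.

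Heparan sulfate chains and klotho proteins hold FGFs at their receptors. In the list of genes for these and for heparan sulfate enzymes, 3 of 13 at or above the median level were past 1.5-fold higher. None was past it lower. Of all 11090 genes at that level, 3.64% were past it higher and 4.63% lower, and 59.4% were higher by any amount. Sulf2 read 152 with FGF18 and 84.0 with saline (1.80-fold), and Sulf1 read 37.9 with FGF18 and 22.7 with saline (1.64-fold). Both encode enzymes that remove sulfate groups from heparan sulfate outside the cell. Hs6st1, which encodes an enzyme that adds such groups, read 47.6 with FGF18 and 29.6 with saline (1.59-fold). The syndecan core protein genes Sdc4 and Sdc2 were at -0.37 and -0.27, and the list's median over 15 genes was -0.01, with 7 higher and 8 lower (0.10 over the 13 at or above the median level).

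**Figure D3:**
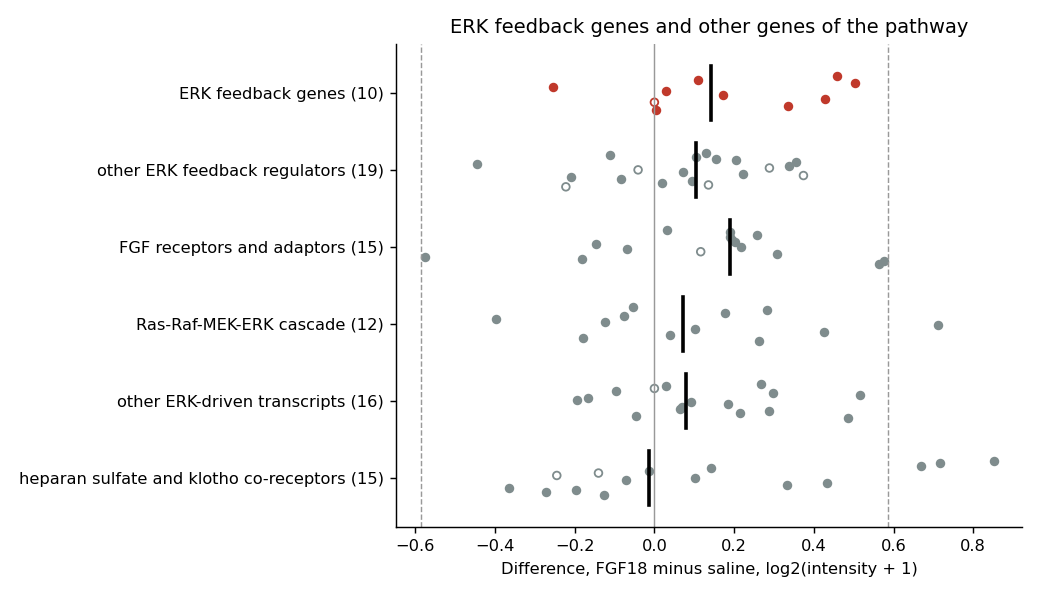
Difference, FGF18 minus saline in log2(intensity + 1), of each measured gene of the ERK feedback genes (red) and of 5 further lists (grey), with filled points at or above the median level, open points below it, black bars at list medians and dashed lines at 1.5-fold. The list medians lie from -0.01 to 0.19, and the genes past 1.5-fold are Braf, Hs6st1, Sulf1 and Sulf2.

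Markers of differentiated keratinocytes and of the inner root sheath had larger differences than any ERK feedback gene, except for Gata3. All 8 keratinocyte differentiation markers were at least 1.5-fold lower with FGF18, with a median difference of -1.93. Their summed intensity was 4084 with FGF18 and 15672 with saline. Such sums follow the brightest probe sets of a list, so they can go against its median and do not measure the amount of a cell type. Of 8 inner root sheath markers 7 were at least 1.5-fold higher, with a median of 0.98 and a summed intensity of 6173 with FGF18 and 3128 with saline, and Gata3 was at -0.06. Of 8 dermal papilla markers 7 were higher by any amount (median 0.39, summed intensity 729 with FGF18 and 525 with saline). So were all 5 macrophage markers (median 0.51, 174 with FGF18 and 129 with saline). Over the 4 macrophage markers at or above the median level the median was 0.37. Of 5 measured markers of basal keratinocytes and outer root sheath 4 were higher (median 0.37, 1290 with FGF18 and 1326 with saline), and Krt14 was at -0.81. The background for these counts, taken over the 11090 brighter genes, was 59.4% for higher by any amount. For 1.5-fold it was 3.64% on the higher side and 4.63% on the lower side. In lists of 5 to 8 genes, counts of any amount therefore say little.

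Dermal and other markers lay on the lower side or were mixed. The background for lower by any amount, over the 11090 brighter genes, was 38.0%, and these lists are short as well. Of 7 fibroblast markers 5 were lower (median -0.33, summed intensity 1018 with FGF18 and 1123 with saline) and of 6 muscle markers 4 were lower (median -0.08, 4487 with FGF18 and 4691 with saline). Of 5 adipocyte markers 3 were lower (median -0.09, and 0.07 over the 4 at or above the median level, with summed intensities of 638 with FGF18 and 462 with saline) and of 7 endothelial markers 3 were lower (median 0.21, and -0.26 over the 4 at or above the median level, with summed intensities of 122 with FGF18 and 131 with saline). As a check of the labelled tissue, the 8 keratinocyte differentiation, 8 inner root sheath and 7 fibroblast markers all read above the median of each array. The part of these shifts in the differences of the ERK feedback genes was not tested, and in bulk skin fewer cells of a type and less RNA per cell cannot be told apart.

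**Figure D4:**
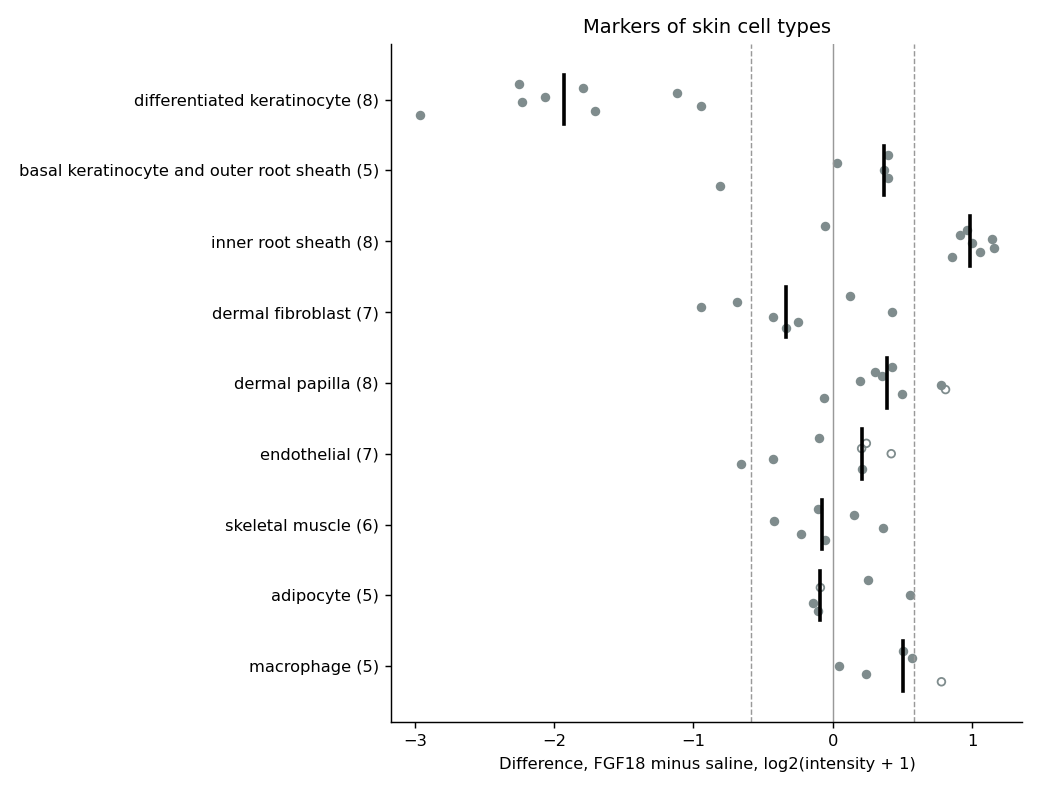
Difference, FGF18 minus saline in log2(intensity + 1), of each measured marker of 9 skin cell types, with filled points at or above the median level, open points below it, black bars at list medians and dashed lines at 1.5-fold. Differentiated keratinocyte markers lie at a median of -1.93 and inner root sheath markers at 0.98, outside the range of the ERK feedback genes.

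The larger differences kept their sign under every way of processing the values that was tried, except that of Etv5. Dusp6 stayed between 0.34 and 0.64, Spred1 between 0.32 and 0.43, Spry2 between 0.24 and 0.34, and Dusp5 between -0.33 and -0.18. Etv5 ran from 0.00, with its brighter cluster alone, to 0.48, with no pseudocount. Spry1 and Dusp4 changed sign around 0. With the median over genes at or above the median level subtracted, 6 of 10 members were higher in place of 8.

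**Figure D5:**
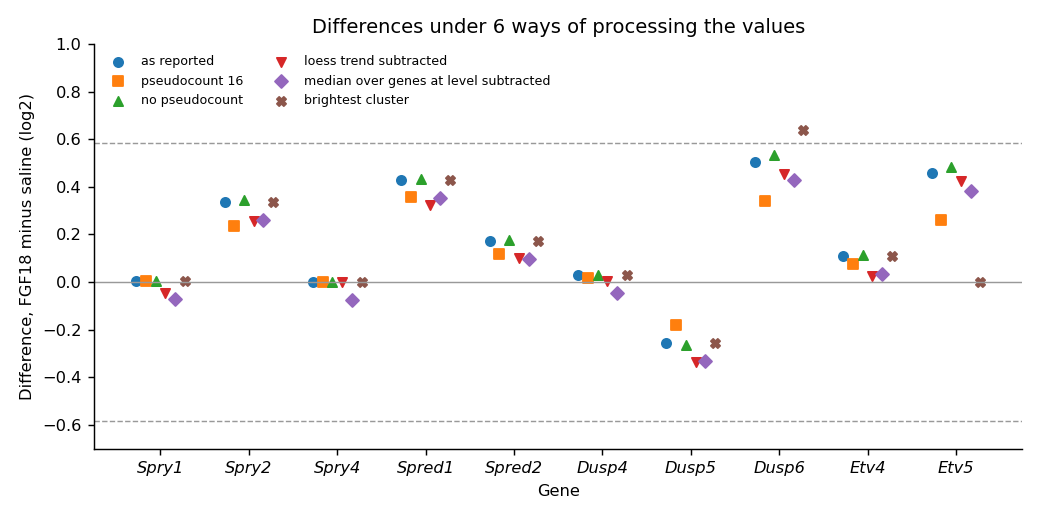
Difference, FGF18 minus saline (log2), of each member as reported and under 5 alternatives, with dashed lines at 1.5-fold. Dusp6 passes 1.5-fold with its brighter cluster alone, at 0.64, and Etv5 is at 0.00 in the same setting.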

How the data were processed

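Total RNA of skin was extracted with Trizol, labelled with biotin and hybridised to Affymetrix Mouse Gene 2.0 ST arrays, per the labels' protocols. The authors summarised the arrays with RMA and Affymetrix Expression Console, per the submitters' processing notes, in versions not given in the sources used here. What they deposited are intensities per transcript cluster on a linear scale, as judged from their range (1.44 to 11532 with FGF18, 1.39 to 11488 with saline). Arrays have no read depth, and 1 per group limits the precision.

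The platform annotation gave 1 symbol to 23521 of 41345 clusters, and 23328 of these matched the RefSeq gene table by Entrez identifier. Values were taken as log2(intensity + 1) and averaged over clusters of a symbol. Calls were 1.5-fold differences among the 11090 genes whose mean was at or above the median. The members, lists and alternatives were chosen with earlier results of these data known. Named were all members, the 2 highest and 2 lowest genes of each pathway list at or above the median level, its genes past 1.5-fold, and Fgf18. Gata3 and Krt14 were named after their values were seen. Clusters under the median of their array get intensities only. No genes of most alike pattern are named, since 2 arrays give a single difference per gene. Frs2, Fosl1, Ndst1 and Krt5 were not analysed here. The steps were tested on simulated data and run in Python 3.11.15 with pandas 2.3.3 and statsmodels 0.14.6. Noise in the simulation was smaller than the pooled SD between clusters (0.24). The simulation therefore checks the steps only, not whether differences of the members' size can be told from error.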

Additional observations from a re-analysis of the deposited data

How the results depend on the processing

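Alternatives were a pseudocount of 16 or none, removal of a loess trend of the difference against brightness (span 0.3), centring on the median over all genes (0.00, which moved nothing), the brightest cluster of a symbol, clusters with several symbols under their first, a 2-fold threshold and the filter on low values. Centring on the median over genes at or above the median level (0.07) was chosen after seeing the data. With the brightest cluster, 1 member, Dusp6, was at least 1.5-fold higher, against 0 in the other settings, and Etv5 stood at 0.00. No setting gave a member 1.5-fold lower. The members' median difference ran from 0.06 (loess) to 0.17 (only members at or above the median level) and the number higher from 6 to 8. The median of the Ras to ERK cascade turned to -0.036 with loess and to -0.0039 with the added centring. That of the heparan sulfate and klotho list turned to 0.10 over genes at or above the median level. Spry1 turned to -0.046 with loess and to -0.069 with the added centring, and Dusp4 to -0.046 with that centring. The causes were not tested. The medians of the members and of the other 3 pathway lists kept their sign in these settings. Among marker lists, for which only the filter on low values was tried, the endothelial median turned to -0.26 and the adipocyte median to 0.07 over genes at or above the median level. No paired analysis was possible because each group has 1 array, and no replicate could be left out. Brightness limits Spry4, the second Dusp6 cluster and the first Etv5 cluster, which lie near or below the array medians.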
